A study of Mus musculus with 21 samples.

Results

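The change from epiblast-like cells to sorted day 6 cells was followed in a mouse embryonic stem cell line that lacks both Otx2 and Blimp1. The samples were chosen by genotype and stage from the labels, and they make up 6 of the 21 arrays of the series. Primordial germ cell-like cells (PGCLC) of this line, 3 arrays, were sorted at day 6 for SSEA1 and CD61 from aggregates that had been cultured with BMP4, BMP8a, LIF, SCF and EGF. Epiblast-like cells (EpiLC) of the same line, 3 arrays, were naive stem cells kept for 2 days with activin A and FGF2. The medium held 15% serum replacement (KSR) for PGCLC and 1% for EpiLC, so medium and stage cannot be told apart. Both groups carry the Otx2-/- and Blimp1-/- alleles, so neither is wild type, and the line is called double-null here. For comparison, the same induction was available in an Otx2-/- line (Otx2-null) and in the E14Tg2a line (WT), each with 3 PGCLC and 3 EpiLC arrays that are not shared with the double-null samples. With only 1 line per genotype, effects of genotype and of line cannot be told apart. The labels number the replicates and do not say whether they were separate cultures. Each p-value therefore sets a difference only against the spread between arrays within groups, taken over all 21 arrays of the series.

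Otx2 is a homeodomain transcription factor of the epiblast that holds back entry into the germline. Blimp1, the product of Prdm1, is a zinc finger repressor that in mouse silences somatic genes during germ cell specification and acts with Prdm14 and Tfap2c. Specification by BMP signals brings back many genes of naive pluripotency, while genes of the primed epiblast are shut off. Whether that programme runs in cells without either factor is the question that this comparison addresses.

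RNA was measured on one-colour bead arrays, and levels are given as log2 signal after background correction and quantile normalization. Between 15961 and 16507 probes were detected per double-null PGCLC array, against 14696 to 15100 per double-null EpiLC array. Correlations between arrays lay between 0.989 and 0.991 within PGCLC and between 0.987 and 0.991 within EpiLC, and between 0.918 and 0.930 across the groups. Prdm1 has 2 probes on the array. Neither was detected on any of the 6 double-null arrays, and only the brighter one was detected elsewhere, on 2 of 21 arrays, so the array does not check the Blimp1 deletion. The Otx2 probe was detected on all 6 arrays, and where it lies relative to the deleted part is not given in the sources used here. Otx2 probe signal was 10.50, 10.45 and 10.22 in PGCLC, against 11.52, 11.55 and 11.39 in EpiLC. It averaged 9.62 ± 0.22 in Otx2-null and 7.63 ± 0.07 in WT PGCLC, and 11.36 ± 0.10 in Otx2-null and 10.98 ± 0.24 in WT EpiLC. The signal in the lines labelled as lacking Otx2 was thus above that of WT at both stages, the array does not check the Otx2 deletion, and genotypes below are those of the labels.

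Of 11649 genes tested, 5038 (43.2%) differed between double-null PGCLC and EpiLC at an adjusted p under 0.05, 2383 (20.5%) higher and 2655 (22.8%) lower in PGCLC. The difference was at least 2-fold for 1934 genes (16.6%). The 3 PGCLC and 3 EpiLC arrays did not overlap for 6044 genes (51.9%). The median log2 difference over all genes was -0.04 and the median standard error was 0.18. The shares of 43.2% called, 20.5% higher and 22.8% lower are the background for the counts of list members below.

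The largest rises included genes of several programmes. Among the 15 largest, Tfcp2l1, Tbx3 and Tcl1 belong to the naive pluripotency and germ cell programmes. Gm5662, Pramel20, Pramel37 and Pramel16 belong to families expressed in the early embryo or germline. Aurkc, the Aurora kinase of meiotic divisions, stood beside them. The pseudogene transcript 2210409E12Rik gave the largest difference, with levels of 11.60, 12.10 and 11.57 in PGCLC, against 4.58, 4.69 and 4.59 in EpiLC. It was not detected on any EpiLC array, so the rise is at least 94.6-fold when each EpiLC value is set to the signal of the dimmest probe detected on its array. Bounds below are made in the same way. Gm428, also not detected in EpiLC, was at least 53.4-fold higher, with 10.93 ± 0.18 in PGCLC and 4.76 ± 0.10 in EpiLC (SD, n = 3 each). Myo1f, a class I myosin, averaged 10.65 ± 0.12 in PGCLC and 5.05 ± 0.15 in EpiLC. Manba, a lysosomal mannosidase, rose by 5.05 (standard error 0.22) on the log2 scale. Aard rose by 5.02, Ly6g6e by 4.96 and Spink1, a secreted protease inhibitor, by 4.82.

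The largest falls included regulators and signals of the epiblast. Pou3f1, a POU factor of the primed epiblast, was at 5.00, 5.23 and 5.36 in PGCLC, against 10.72, 10.26 and 10.31 in EpiLC. Its log2 difference of -5.24 (standard error 0.24, adjusted p 2.99e-14) was the largest fall. Cxcl12, the chemokine that guides migrating germ cells, was not detected on any PGCLC array and was at least 30.4-fold lower than in EpiLC, where it reached 9.97 ± 0.12. The other large falls fell on genes of several functions. Tmem54 was at least 29.9-fold lower, Spata45 at least 17.6-fold, the carbonic anhydrase gene Car4 at least 15.8-fold, and the GABA transporter gene Slc6a13 at least 14.6-fold. Ccno fell by 4.94, Slc5a5, the sodium iodide symporter, by 4.79, and Cdkn1c, an imprinted inhibitor of cyclin-dependent kinases, by 4.50. Vrtn was at least 12.3-fold lower and Ptn, a heparin-binding growth factor, at least 9.74-fold, and Hes6 fell by 4.03 and Acsl5 by 3.75.

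**Figure D1:**
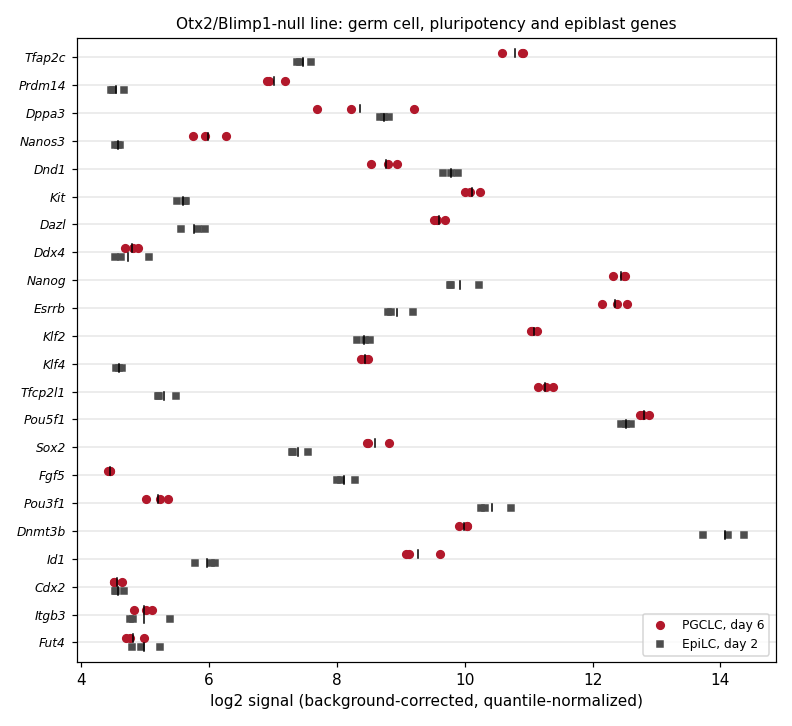
Log2 signal of 22 germ cell, pluripotency and epiblast genes on each double-null array; red circles are PGCLC at day 6, grey squares EpiLC at day 2, and vertical bars group means. Tfcp2l1 and Kit lie far to the right in PGCLC, Pou3f1 and Dnmt3b far to the left, and the Dppa3 circles span the EpiLC squares.

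Most early germ cell genes rose. Of 21 members, 13 rose, 5 fell and 3 did not pass the test, and their median was 1.34 (0.94 with undetected members at their bound), against -0.04 over all genes. Tfap2c, which encodes AP-2 gamma, was at 10.59, 10.89 and 10.91 in PGCLC, against 7.42, 7.59 and 7.38 in EpiLC, a log2 difference of 3.33 (standard error 0.16, adjusted p 8.95e-14). Kit, the receptor of the SCF in the medium, was at 10.01, 10.08 and 10.24 in PGCLC, against 5.62, 5.64 and 5.49 in EpiLC, a log2 difference of 4.53 (0.18, 7.34e-15). For both genes the groups lay far apart. Tcl1, a cofactor of Akt kinases, rose by 4.92 on the log2 scale. Prdm14, the partner of Blimp1 in specification, was at 6.93, 6.91 and 7.19 in PGCLC and was not detected in EpiLC, so its rise was at least 3.52-fold. Nanos3, an RNA-binding protein that keeps germ cells alive, was at 5.74, 6.26 and 5.93 in PGCLC and was not detected in EpiLC, which makes its rise at least 1.73-fold. In the authors' normalized table, which holds dim genes near a floor, the differences of Prdm14 and Nanos3 did not pass the test.

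Dppa3 (Stella), a marker of specified germ cells, went another way from Tfap2c. It was at 7.68, 8.21 and 9.20 in PGCLC, against 8.74, 8.68 and 8.81 in EpiLC. The EpiLC values lie within the PGCLC range, and the difference of -0.38 did not pass the test (adjusted p 0.233). Without PGCLC replicate 3, the highest, it was -0.79 and passed. Dnd1, an RNA-binding protein that germ cells need to survive, was at 8.95, 8.81 and 8.53 in PGCLC, against 9.79, 9.89 and 9.66 in EpiLC, and fell by 1.02 (0.17, 3.44e-05). Tdrd12 and Tdrd5, Tudor proteins of the piRNA pathway, had log2 differences of -3.69 and -1.68, although the fall of Tdrd5 did not pass in the authors' table. Utf1, a chromatin protein of pluripotent and germ cells, fell by 1.24, and Lin28a, which blocks let-7 maturation, fell by 1.65. Tdrd12, Tdrd5 and Lin28a were also called lower in the WT induction, with changes of -3.09, -0.76 and -0.93. Utf1, at -0.29, was not called there. For Tdrd12 the double-null change minus the WT change, -0.60, did not pass the test (limma, adjusted p 0.110). Among these germ cell genes Tfap2c, Prdm14, Nanos3 and Kit thus rose, Dppa3 did not pass the test and Dnd1 fell. Prdm14 and Nanos3 did not pass in the authors' table. Prdm14 is also a member of the naive pluripotency list below, most of which rose. The rise of Prdm14 therefore does not tell a germ cell from a naive-like cell, and whether the other rises do was not tested. Itgb3 and Fut4, the panel genes taken for the sort, gave no check of the labelled cell type. Itgb3, which encodes CD61, was at 4.98 ± 0.14 in PGCLC and 4.98 ± 0.35 in EpiLC. Fut4, whose enzyme can make the SSEA1 epitope, was at 4.82 ± 0.15 in PGCLC and 4.98 ± 0.23 in EpiLC. Each of these genes was detected on at most 1 array of a double-null group. The epitope was not measured, and other genes for enzymes that may make it are not described here. In sorted populations measured in bulk, fewer cells of a type and less RNA per cell cannot be told apart.

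Naive pluripotency genes rose in their majority. Of 20 tested members, 17 rose, 0 fell and 3 did not pass (limma, with 0 lower at an unadjusted p under 0.05 too), with a median of 2.49 (2.24 at bounds). Tfcp2l1, a target of STAT3 that can sustain naive cells, was at 11.14, 11.27 and 11.38 in PGCLC, against 5.48, 5.20 and 5.21 in EpiLC, a log2 difference of 5.97 (0.15, 3.39e-18). Tbx3, a T-box factor downstream of LIF and BMP, was at 10.16, 10.23 and 10.13 in PGCLC, against 5.76, 4.92 and 5.06 in EpiLC. Esrrb, an orphan nuclear receptor, was at 12.15, 12.38 and 12.54 in PGCLC, against 9.18, 8.85 and 8.79 in EpiLC, a log2 difference of 3.41. A second, dim probe of Esrrb gave 0.27 and did not pass the test. Zfp42 (Rex1) rose by 3.69, Klf2 by 2.66 and Nanog, the homeobox factor, by 2.52. Klf4 was not detected in EpiLC and was at least 9.47-fold higher in PGCLC. Among genes that naive and primed cells share, the picture was mixed. Of 12 tested, 3 rose, 3 fell and 6 did not pass, with a median of 0.16 (0.04 at bounds). Pou5f1 (Oct4) was at 12.88, 12.74 and 12.78 in PGCLC, against 12.60, 12.52 and 12.44 in EpiLC; the values did not overlap, but the difference of 0.28 did not pass the test (adjusted p 0.119). Sox2 rose by 1.21. Sall4 rose by 0.87, a call that was lost without PGCLC replicate 1 or 3 or EpiLC replicate 3, and only 1 member of the list was called higher in each of those fits. A dimmer further probe of Sall4 gave 1.51 and passed in the fit of all arrays. Lin28b was at least 1.58-fold lower and Zscan10 fell by 0.43.

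Targets of LIF and STAT3, whose ligand was added with the induction medium, overlapped in membership with the naive list. Of 16 members, 13 rose, 1 fell and 2 did not pass, with a median of 1.71 (1.59 at bounds). Klf5, a Krüppel-like factor, averaged 11.80 ± 0.05 in PGCLC and 8.20 ± 0.17 in EpiLC. Socs3, the feedback inhibitor of this pathway, was at 9.53, 9.52 and 9.32 in PGCLC, against 5.95, 5.66 and 5.69 in EpiLC, a log2 difference of 3.69 (0.19, 2e-13). Pim1 was the exception at -0.47 with an adjusted p of 0.0489, and its second probe gave 0.23.

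**Figure D2:**
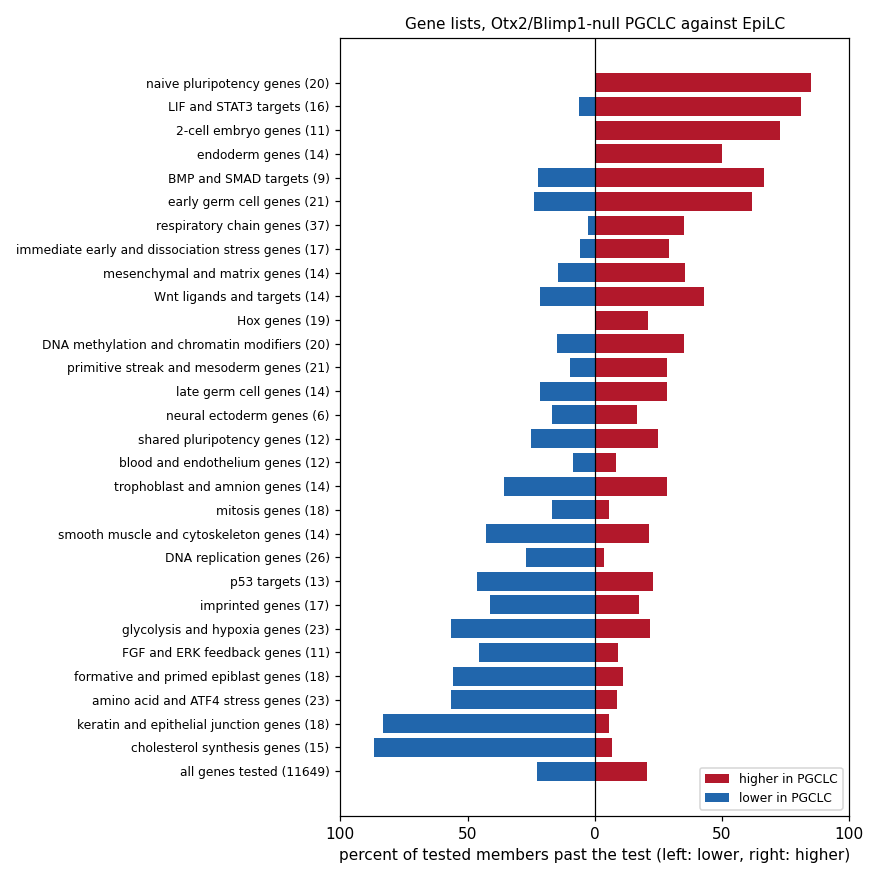
Percent of the tested members of each gene list that passed the test in double-null PGCLC against EpiLC, higher to the right and lower to the left; the number of tested members is in brackets. Naive pluripotency genes and LIF targets stand at the top, cholesterol synthesis genes and keratin and epithelial junction genes at the bottom, and the lowest bar gives all 11649 genes.

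Genes of later germ cells went in both directions. Of 22 listed genes 14 were tested, and 4 rose, 3 fell and 7 did not pass, with a median of 0.14 (0 at bounds). Over all genes 43.2% passed, so the count of calls was near that background. Dazl, an RNA-binding protein that licenses germ cells for their later fate, was at 9.69, 9.53 and 9.57 in PGCLC, against 5.56, 5.93 and 5.82 in EpiLC, a log2 difference of 3.83 (0.20, 5.18e-13). Asz1, a protein of the piRNA machinery on mitochondria, was at 8.42, 8.65 and 9.15 in PGCLC, against 5.23, 5.72 and 6.33 in EpiLC, a log2 difference of 2.98 (0.24, 5.87e-10). Stra8, the retinoic acid responsive gene of meiotic entry, was at 7.31, 6.99 and 5.84 in PGCLC and was not detected in EpiLC, so it was at least 2.87-fold higher. For Dazl and Asz1 every PGCLC array lay above every EpiLC array, and for Stra8 PGCLC replicate 3 was the lowest of its group. Ddx4 (Vasa), a helicase of committed germ cells, was not detected on any of the 6 arrays. Taf7l fell by 1.06. Piwil2 fell by 0.60, and Piwil4, not detected in PGCLC, was at least 1.1-fold lower, and both calls were lost without PGCLC replicate 2 and in the authors' table.

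Genes of the 2-cell embryo, which a small share of cultured stem cells switch on together with Zscan4, rose as a group. Of 11 tested members 8 rose, 0 fell and 3 did not pass (limma, with 0 lower at an unadjusted p under 0.05 too), with a median of 3.58 (3.29 at bounds). Of all genes tested, 20.5% rose. Tcstv1 was at 9.52, 9.89 and 10.09 in PGCLC, against 5.18, 5.34 and 5.17 in EpiLC, a log2 difference of 4.60 (0.26, 1.37e-12). Gm5662 was at 10.99, 11.08 and 11.25 in PGCLC, against 5.35, 5.38 and 6.08 in EpiLC. Pramel20 was at 10.08, 10.13 and 10.57 in PGCLC, against 4.72, 5.32 and 5.52 in EpiLC. Tcstv3 rose by 3.58, and Zscan4c, added here after its values were seen, rose by 4.41. These genes lie in families of near-identical copies, and their probes may read several copies at once. The summed signal of the tested members, on the linear scale, lay between 10448 and 11633 on PGCLC arrays, against 3181 to 3571 on EpiLC arrays.

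Promoters of Dazl and Asz1, the most changed late germ cell genes, and of Zscan4c and Pramel20, which rose with the 2-cell genes, are shown because the groups differ in their content of CG dinucleotides, the sites of DNA methylation. Each sequence runs 5′ to 3′ from 250 bases before to 50 bases after the annotated start on the strand of the gene, with every CG in capitals (a motif that reads the same on both strands). They are from RefSeq, build GRCm38.p6, at chr17:50293571-50293870 on the minus strand for Dazl, chr6:18109012-18109311 on the minus strand for Asz1, chr7:11005495-11005794 on the plus strand for Zscan4c and chr4:143567217-143567516 on the plus strand for Pramel20.
Dazl: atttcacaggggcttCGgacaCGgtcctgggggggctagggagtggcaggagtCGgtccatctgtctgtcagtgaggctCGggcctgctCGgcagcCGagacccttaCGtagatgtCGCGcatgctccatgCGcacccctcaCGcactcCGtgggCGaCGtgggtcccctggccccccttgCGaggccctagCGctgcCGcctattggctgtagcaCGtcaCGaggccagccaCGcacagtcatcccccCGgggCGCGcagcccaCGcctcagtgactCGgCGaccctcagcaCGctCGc
Asz1: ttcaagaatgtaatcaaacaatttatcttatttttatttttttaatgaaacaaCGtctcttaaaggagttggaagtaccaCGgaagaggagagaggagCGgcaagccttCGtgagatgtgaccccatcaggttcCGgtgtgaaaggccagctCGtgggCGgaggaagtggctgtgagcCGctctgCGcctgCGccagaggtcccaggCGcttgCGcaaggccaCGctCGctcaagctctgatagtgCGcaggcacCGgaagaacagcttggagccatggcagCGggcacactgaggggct
Zscan4c: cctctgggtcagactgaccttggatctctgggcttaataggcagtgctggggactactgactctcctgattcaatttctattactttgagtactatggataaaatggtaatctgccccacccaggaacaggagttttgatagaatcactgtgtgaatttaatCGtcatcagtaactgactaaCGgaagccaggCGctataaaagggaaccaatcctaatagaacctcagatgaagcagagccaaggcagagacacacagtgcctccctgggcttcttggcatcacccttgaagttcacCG
Pramel20: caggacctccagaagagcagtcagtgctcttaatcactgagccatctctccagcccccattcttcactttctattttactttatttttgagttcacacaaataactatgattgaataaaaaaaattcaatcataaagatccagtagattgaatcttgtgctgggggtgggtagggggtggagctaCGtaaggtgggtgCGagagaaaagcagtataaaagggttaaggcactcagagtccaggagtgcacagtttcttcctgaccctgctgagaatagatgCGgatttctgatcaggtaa
Dazl has 28 CG in this window and Asz1 has 17, counts that 14.2% and 31.4% of all 32851 RefSeq promoters of that length reach. Zscan4c has 4 and Pramel20 has 3, which 68.6% and 76.7% reach. The 12 tested late germ cell genes with a promoter in the table had a median of 17 CG, the 5 such 2-cell genes a median of 2, and all promoters a median of 7. The 11 such naive genes had a median of 14. Tcstv1, Tcstv3 and Gm5662 had no promoter there. Late germ cell genes called higher had between 4 and 28 CG, and those called lower had 11 and 17. These counts describe the windows only; methylation was not measured.

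Genes of the formative and primed epiblast fell in the majority. Of 18 tested, 10 fell, 2 rose and 6 did not pass, with a median of -0.98. Fgf5, a growth factor gene that marks the primed state, was not detected in PGCLC, against 8.29, 8.00 and 8.06 in EpiLC, and was at least 8.41-fold lower. Fst, the activin antagonist follistatin, was at least 6.59-fold lower. Lefty2, a Nodal antagonist, rose by 0.73, and Eomes, dim in both groups, rose by 0.47, a call lost in the authors' table. DNA methyltransferase genes were among these falls. Dnmt3b, which sets new methylation in the epiblast, was at 9.91, 10.03 and 10.04 in PGCLC, against 14.36, 14.11 and 13.73 in EpiLC, a log2 difference of -4.07 (0.17, 1.18e-14). Dnmt3l, its catalytically inactive partner, was at 9.80, 10.03 and 10.43 in PGCLC, against 12.46, 12.00 and 12.12 in EpiLC. Among all 20 tested modifiers of DNA methylation and chromatin, 7 rose, 3 fell and 10 did not pass, with a median of 0.03 (-0.02 at bounds). Over all genes 43.2% passed. Tet1, which oxidises methylated cytosine, rose by 1.73, and Kdm3a, an H3K9 demethylase, by 1.66. Prmt5, an arginine methyltransferase, fell by 0.54.

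Feedback genes of the FGF and ERK pathway, active under FGF2 in EpiLC culture, fell in 5 of 11 tested members, rose in 1 and did not pass in 5, with a median of -0.40. Dusp4, a phosphatase that ERK signalling induces, was at 4.89, 5.53 and 5.80 in PGCLC, against 9.04, 8.85 and 8.75 in EpiLC, and the dimmest of its 3 further probes gave -0.41 without passing. Fgf15 fell by 1.47 and Dusp6 by 1.01. Phlda1, not detected in EpiLC, was at least 3.03-fold higher and did not pass in the authors' table. Fgf8 of the mesoderm list was not detected in PGCLC, against 8.69, 8.74 and 8.75 in EpiLC, and was at least 12.8-fold lower.

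Keratin and epithelial junction genes fell in their majority. Of 18 tested members 15 fell, 1 rose and 2 did not pass, with a median of -1.10. Of all genes tested, 22.8% fell. Krt18, a keratin of simple epithelia, was not detected in PGCLC, against 7.79 ± 0.19 in EpiLC, and was at least 6.72-fold lower. Esrp1, a splicing factor that sets epithelial isoforms, was at 7.47, 7.73 and 8.76 in PGCLC, against 11.23, 10.87 and 10.89 in EpiLC, a log2 difference of -3.01 (0.22, 9.5e-11). Cldn6, a tight junction claudin, averaged 8.83 ± 0.35 in PGCLC and 11.18 ± 0.33 in EpiLC. Pkp2, a desmosome protein, averaged 7.78 ± 0.07 in PGCLC and 9.63 ± 0.22 in EpiLC. Dsg2, a desmosomal cadherin, went the other way and rose by 1.48, while its 2 dimmer probes gave -0.18 and 0.17 and did not pass. The summed signal of the list lay between 2849 and 3795 on PGCLC arrays, against 8358 to 10501 on EpiLC arrays.

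**Figure D3:**
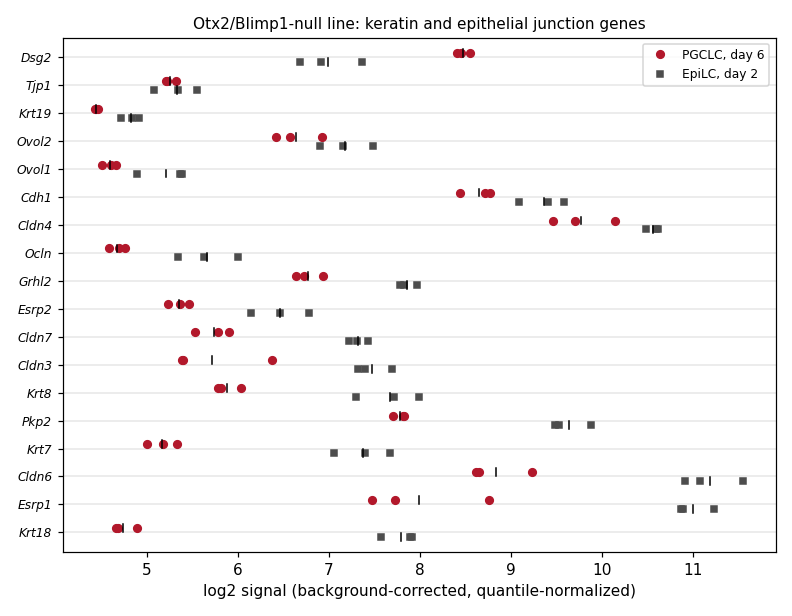
Log2 signal of the 18 tested keratin and epithelial junction genes on each double-null array, ordered by their difference; red circles are PGCLC, grey squares EpiLC and vertical bars group means. All genes below Ovol2 have their PGCLC circles left of their EpiLC squares, and Dsg2 at the top is the reverse.

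Markers of other cells that the sort gate could hold were mostly dim. Of 21 tested primitive streak and mesoderm genes 6 rose, 2 fell and 13 did not pass, with a median of -0.01. Over all genes 20.5% rose and 22.8% fell. Of the 21 members, 6 were not detected on any of the 6 arrays. Wnt3a, counted among those that rose, was not detected on any of the 6 arrays, and Eomes was detected on only 1. Meis2, a homeobox cofactor, was at 9.24, 9.45 and 9.60 in PGCLC, against 6.06, 5.65 and 6.34 in EpiLC. Gsc (goosecoid) was at least 3.24-fold higher and Meis1 at least 1.8-fold, while Meis1 did not pass in the authors' table, where 2 members were called higher. Cdx1 rose by 1.01. The summed signal of the list was 1343 to 1606 in PGCLC and 1049 to 1099 in EpiLC.

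Of 14 trophoblast and amnion genes 4 rose, 5 fell and 5 did not pass, with a median of -0.02. The shares over all genes were 20.5% higher and 22.8% lower. Tead4 was at least 3.12-fold higher, Tfap2a at least 1.58-fold and Gata2 at least 1.22-fold. Krt7 fell by 2.20, and Cdx2, a homeobox gene of trophoblast and hindgut, was not detected on any of the 6 arrays. Of these members 0 were called higher in a limma fit of the authors' table. The summed signal was 555 to 566 in PGCLC and 892 to 1028 in EpiLC. Of 12 blood and endothelium genes 1 rose and 1 fell. Pecam1, also a surface protein of naive cells, rose by 1.39, and Lmo2 was at least 7.6-fold lower. The embryonic globin genes Hbb-y, Hbb-bh1 and Hba-x, named after their values were seen, were not detected on any of the 6 arrays.

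Of 14 endoderm genes 7 rose, 0 fell and 7 did not pass (limma, with 1 lower at an unadjusted p under 0.05), with a median of 0.51 (0.08 at bounds). Those that rose with the smallest p were Lama1 by 2.24, Sparc by 1.23, Col4a1 by 0.99 and Amn by 0.99. Col4a1 and Amn were lost in the authors' table, where 2 members were called higher. The 14 mesenchymal and matrix genes gave 5 higher, 2 lower and 7 not past the test. Over all genes 20.5% rose, 22.8% fell and 43.2% passed, the background for each list of this paragraph. The mesenchymal count of calls was near it. Zeb1, a repressor of epithelial genes, was at least 3.42-fold higher, Fn1 rose by 2.24, Tgfbi by 1.88 and Mmp14 by 1.01, whereas Mmp2 fell by 1.18 and Col5a1 by 0.70. Both further probes of Fn1, which are dim, gave 0.31 and 0.09 and did not pass. Snai1 and Snai2, the classical drivers of mesenchymal change, named after their values were seen, gave -0.23 and 0.07 and did not pass. Smooth muscle and cytoskeleton genes gave 3 higher and 6 lower of 14, with Myl9 at least 6.1-fold lower, Tpm2 down by 1.95 and Tpm1 down by 1.16. Of 6 tested neural genes Vim, an intermediate filament gene, rose by 0.44 (adjusted p 0.0479), Dll1, a Notch ligand gene not detected in PGCLC, was at least 1.21-fold lower (0.0285), and 4 did not pass. Of 19 Hox genes 4 rose, 0 fell and 15 did not pass (limma, with 0 lower at an unadjusted p under 0.05 too), with a median of 0.05 (0 at bounds). The share of Hox genes that rose was near that over all genes. Among them only Hoxa5, at 6.25 ± 0.53 in PGCLC and not detected in EpiLC, exceeded 2-fold, being at least 2.08-fold higher. A single Hox gene was called higher in the authors' table, and it was not Hoxa5. Whether other cells in the gate took part in any of these changes was not tested.

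Targets of BMP and SMAD, whose ligands BMP4 and BMP8a were in the medium, rose in 6 of 9 tested members, fell in 2 and did not pass in 1, with a median of 1.05 (0.29 at bounds). Id1, an inhibitor of helix-loop-helix factors, was at 9.08, 9.12 and 9.60 in PGCLC, against 6.09, 6.03 and 5.78 in EpiLC, a log2 difference of 3.30 (0.24, 1.42e-10). Bmp4 itself averaged 9.94 ± 0.11 in PGCLC and 6.67 ± 0.52 in EpiLC. Id2 rose by 1.39, while the dimmer of its 2 further probes gave 0.21. Msx1 was at least 1.47-fold lower, and Smad6, detected on only 1 of the 6 arrays, an EpiLC array, at least 1.03-fold lower. Of these, 3 were higher and 0 lower in a limma fit of the authors' table. Wnt ligands and targets gave 6 higher, 3 lower and 5 not past the test of 14, with a median of 0.17 (0 at bounds). Wnt3a, counted among the 6, was not detected on any double-null array. Porcn, the acyltransferase that Wnt secretion needs, averaged 8.25 ± 0.14 in PGCLC and 5.11 ± 0.39 in EpiLC, and Notum, which removes that acyl group, was at least 6.82-fold higher. Wnt7b was at 6.00, 5.49 and 6.81 in PGCLC and not detected in EpiLC. Wnt8a was at least 3.55-fold lower, and Ccnd1 fell by 1.04. The authors' table called 2 Wnt genes higher and 1 lower.

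Genes of 3 metabolic lists fell in their majority. Cholesterol synthesis genes fell in 13 of 15 tested members, rose in 1 and did not pass in 1, with a median of -1.57. Lss, lanosterol synthase, averaged 7.26 ± 0.16 in PGCLC and 9.96 ± 0.24 in EpiLC. Nsdhl changed by -2.62, Fdps by -1.97 and Pmvk by -1.74, whereas Ebp, a sterol isomerase, rose by 1.43. A dim second probe of Lss gave -0.27 and did not pass. Glycolysis and hypoxia genes fell in 13 of 23, rose in 5 and did not pass in 5, with a median of -0.75. Egln3, a hypoxia-induced prolyl hydroxylase, fell by 2.82, Aldoc by 2.69 and Tpi1 by 1.95. The glucose transporter gene Slc2a3 rose by 2.15, Pfkp by 1.75, and Vegfa by 1.14. A dimmer further probe of Vegfa gave 0.23 and did not pass. Genes of the ATF4 amino acid response fell in 13 of 23 and rose in 2, with a median of -0.73. Ddit4 averaged 7.85 ± 0.62 in PGCLC and 11.46 ± 0.16 in EpiLC, Chac1 fell by 2.93, Stc2 by 2.92, and Vldlr was at least 4.29-fold lower. Asns and Nupr1 rose, both by 0.80, and Nupr1 was lost without PGCLC replicate 3.

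Subunits of the respiratory chain rose in 13 of 37 tested members, fell in 1 and did not pass in 23, with a median of 0.23. Over all genes 20.5% rose and 22.8% fell. Cox7a2 averaged 9.84 ± 0.17 in PGCLC and 8.65 ± 0.46 in EpiLC, and Cox6c averaged 12.81 ± 0.05 in PGCLC and 12.07 ± 0.24 in EpiLC. Cyc1 fell by 0.42. The count of 13 dropped to 8 without EpiLC replicate 1, to 7 without PGCLC replicate 2 and to 8 without PGCLC replicate 3. Cell cycle genes mostly did not pass the test, which 43.2% of all genes passed. Of 26 DNA replication genes 7 fell and 1 rose, with a median of -0.26, and Ccne2 and Ccne1, the E-type cyclins, fell by 1.33 and 0.93. Of 18 mitosis genes 3 fell and 1 rose, Plk1 by 0.86 among the falls. Of 13 p53 targets 6 fell and 3 rose, with Bbc3 down by 1.48 and Gadd45a up by 1.47. Further, dimmer probes of Bbc3 gave -0.41 and -0.21 and did not pass. Of 17 immediate early and dissociation stress genes 5 rose and 1 fell. Fos, not detected in EpiLC, was at least 13.5-fold higher, and Hspb1, a small heat shock protein, rose by 2.24. The aggregate culture and sort that only PGCLC went through cannot be told apart from stage.

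Imprinted genes gave 7 lower, 3 higher and 7 not past the test of 17, with a median of -0.17 (-0.05 at bounds). Over all genes 22.8% fell and 20.5% rose. Cdkn1c was at 8.19, 7.90 and 8.10 in PGCLC, against 12.91, 12.37 and 12.41 in EpiLC, a log2 difference of -4.50 (0.25, 6.97e-13). Mest fell by 2.02 and Phlda2 by 0.83. Igf2, an embryonic growth factor, was at 8.05, 8.37 and 7.97 in PGCLC, against 7.44, 7.52 and 7.37 in EpiLC. The Igf2 values did not overlap, yet the difference of 0.68 did not pass the test in the fit of all arrays (adjusted p 0.117) and passed in a fit of the 6 double-null arrays.

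The double-null induction was then set beside the Otx2-null and WT inductions. The median size of the log2 difference over all genes was 0.37 in the double-null line, 0.69 in the Otx2-null line and 0.65 in WT. Of the double-null calls, 3161 had the same direction in the Otx2-null induction, which is 62.7% of the double-null and 41.5% of the Otx2-null calls, and 704 were opposite. With WT, 2961 were shared in direction, 58.8% of the double-null and 40.5% of the WT calls, and 765 were opposite. Across genes, which are not independent replicates, the differences correlated with r = 0.59 for Otx2-null and r = 0.51 for WT. The change itself differed for 5686 genes (48.8%) between double-null and Otx2-null, 2340 more positive (20.1%) and 3346 more negative (28.7%) in the double-null line. Against WT it differed for 5749 genes (49.4%), 2319 more positive (19.9%) and 3430 more negative (29.4%). The median of these contrasts over all genes was -0.13 against Otx2-null and -0.14 against WT.

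**Figure D4:**
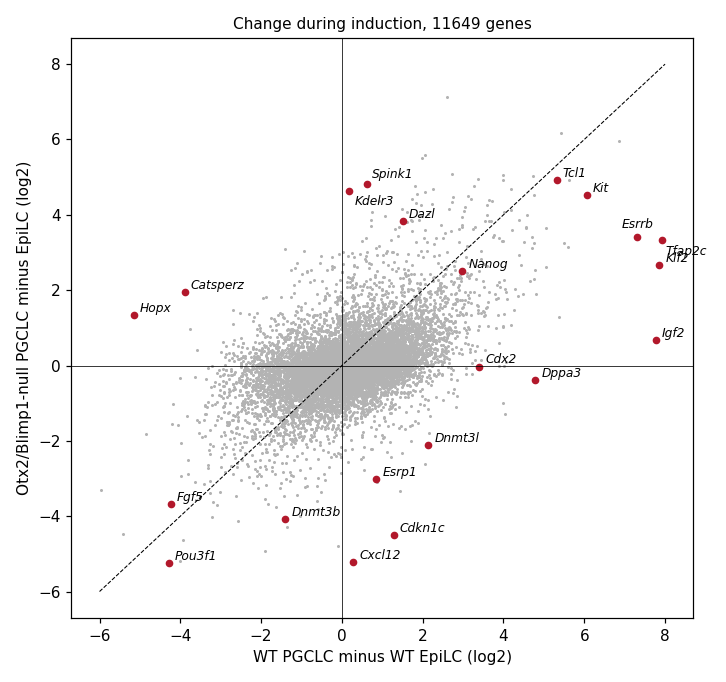
Log2 difference between PGCLC and EpiLC for each of 11649 genes, in the double-null line (vertical axis) and in WT (horizontal axis), with the dashed line marking equal change. Tcl1, Nanog and Fgf5 lie near the line, Klf2, Tfap2c, Dppa3 and Igf2 far below it, and Hopx and Catsperz in the upper left.

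Early germ cell genes had mostly negative contrasts, that is, a smaller rise or a larger fall in the double-null line. Their contrast against WT was negative for 13 of 21 members and positive for 0, with a median of -0.92, and against Otx2-null it was negative for 14 and positive for 0. Over all genes 29.4% were negative against WT and 28.7% against Otx2-null, with medians of -0.14 and -0.13. In both limma contrasts 0 members were positive at an unadjusted p under 0.05. Tfap2c rose by 3.33 in double-null, 5.39 in Otx2-null and 7.93 in WT cells, and the contrast against WT was -4.59 (standard error 0.23, adjusted p 1.26e-12). Tfap2c stood at 10.79 ± 0.18 in double-null, 12.74 ± 0.27 in Otx2-null and 13.52 ± 0.17 in WT PGCLC, and at 7.46 ± 0.11 in double-null, 7.35 ± 0.16 in Otx2-null and 5.59 ± 0.18 in WT EpiLC. Dppa3 differed by -0.38 in double-null, 1.20 in Otx2-null and 4.79 in WT cells. Its contrast was -1.57 against Otx2-null (adjusted p 0.000689) and -5.17 against WT (1.89e-10). Dppa3 stood at 8.36 ± 0.77 in double-null and 11.36 ± 0.07 in WT PGCLC, and at 8.74 ± 0.06 in double-null and 6.57 ± 0.18 in WT EpiLC. Dnd1 changed by -1.02 in double-null, 0.40 in Otx2-null and 1.94 in WT cells, and each contrast passed. Kit changed by 4.53, 5.83 and 6.06 in the same order. Nanos3, not detected in EpiLC of any of these lines, stood at 5.98 ± 0.26 in double-null, 6.70 ± 0.44 in Otx2-null and 8.15 ± 0.22 in WT PGCLC. Prdm14, also not detected in EpiLC of these lines, stood at 7.01 ± 0.16, 7.57 ± 0.15 and 7.55 ± 0.35 in the same order. Its contrast against WT, -0.51, did not pass (adjusted p 0.0804), and that against Otx2-null, -0.61, did (0.0371). Tcl1 changed by 4.92, 5.38 and 5.31, and neither of its contrasts passed.

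For 20 naive genes the contrast against WT was positive for 5 and negative for 7, shares near those over all genes (19.9% and 29.4%). Klf2 changed by 2.66 in double-null and 3.97 in Otx2-null cells. Its EpiLC level was 8.42 ± 0.10 in double-null cells, and it was not detected in WT EpiLC. Esrrb changed by 3.41 in double-null, 4.91 in Otx2-null and 7.30 in WT cells. It stood at 12.36 ± 0.19 in double-null and 13.99 ± 0.16 in WT PGCLC. In EpiLC it stood at 8.94 ± 0.21 in double-null and 6.69 ± 0.23 in WT, so the lines differed at both stages. For Nanog the contrast against WT was -0.47 and did not pass (standard error 0.28, adjusted p 0.169).

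Dazl and Asz1 had positive contrasts against both lines, and 8 of 11 2-cell genes had them against WT. Dazl changed by 3.83 in double-null, 2.41 in Otx2-null and 1.51 in WT cells, with contrasts of 1.42 against Otx2-null (adjusted p 0.000308) and 2.32 against WT (9.19e-07). Asz1 changed by 2.98 in double-null cells, and by -0.28 in Otx2-null and 0.25 in WT cells, where the change did not pass. Of the 11 tested 2-cell genes, the contrast was positive for 8 and negative for 0 against WT, and positive for 5 and negative for 0 against Otx2-null, with medians of 1.50 and 0.70. Over all genes 19.9% were positive against WT and 20.1% against Otx2-null. The counts that follow are again of the 2-cell genes. At an unadjusted p under 0.05 (limma) 0 were negative against WT and 1 against Otx2-null. Gm5662 changed by 5.51 in double-null and 2.83 in Otx2-null cells, and stood at 11.11 ± 0.13 in double-null, 8.80 ± 0.82 in Otx2-null and 6.81 ± 0.45 in WT PGCLC.

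**Figure D5:**
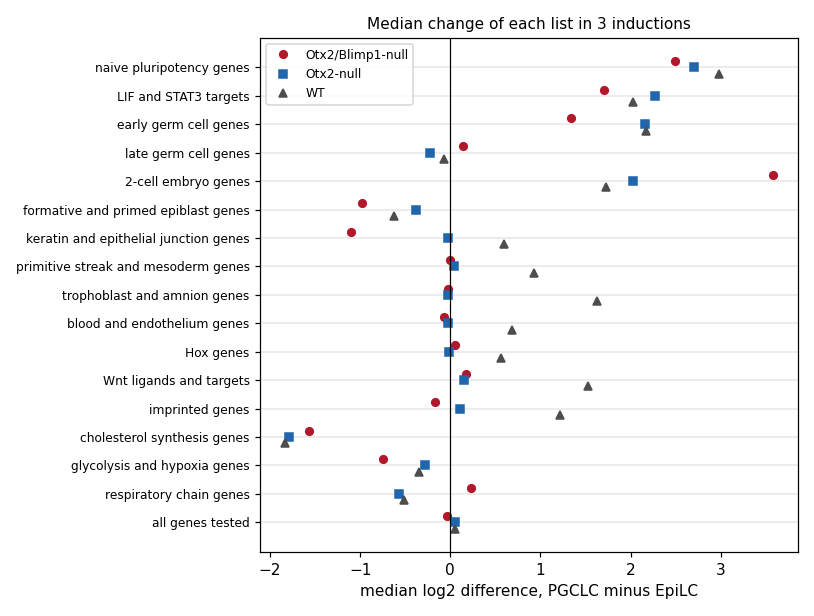
Median log2 difference between PGCLC and EpiLC over the tested members of 16 lists and over all genes, in double-null (red circles), Otx2-null (blue squares) and WT (grey triangles) cells. The double-null median of 2-cell genes is the highest of the 3 and that of keratin and epithelial junction genes the lowest, while WT triangles lie apart to the right for Hox, Wnt, trophoblast and imprinted genes.

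Keratin and epithelial junction genes had a median of -1.10 in double-null, -0.03 in Otx2-null and 0.60 in WT cells. Their contrast was negative for 11 of 18 against Otx2-null and for 13 of 18 against WT, and positive for 0 in either (limma, at an unadjusted p under 0.05 positive for 1 against Otx2-null and 0 against WT). Over all genes 28.7% were negative against Otx2-null and 29.4% against WT. Esrp1 fell by 3.01 in double-null cells and changed by 0.81 in Otx2-null and 0.85 in WT cells, with a contrast of -3.82 against Otx2-null, the most negative of all genes tested. Esrp1 ended at 7.99 ± 0.69 in double-null, against 11.15 ± 0.13 in Otx2-null and 11.15 ± 0.16 in WT PGCLC. Cldn6 changed by -2.35, 0.32 and -0.06 in the same order. Krt18 was not detected in double-null or Otx2-null PGCLC, against 8.15 ± 0.45 in WT PGCLC.

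In other lists the medians of both Otx2-deficient lines lay below that of WT. The Hox median was 0.05 in double-null, -0.01 in Otx2-null and 0.56 in WT cells, and that of trophoblast and amnion genes was -0.02, -0.02 and 1.63. The contrast against WT was negative for 9 of 19 Hox and 11 of 14 trophoblast and amnion genes, against 29.4% of all genes. Cdx2 was not detected in double-null PGCLC, against 7.98 ± 0.25 in WT PGCLC. Wnt genes had medians of 0.17, 0.15 and 1.53, and imprinted genes -0.17, 0.11 and 1.21. Igf2 changed by 0.68 in double-null, 1.03 in Otx2-null and 7.76 in WT cells, and its contrast of -7.08 against WT was the most negative of all genes. Cdkn1c changed by -4.50, -3.59 and 1.28 in the same order. Cxcl12, not detected in double-null PGCLC, stood at 5.34 ± 0.13 in Otx2-null and 8.89 ± 0.32 in WT PGCLC. Prickle1, a planar polarity gene, changed by -3.34, -1.89 and 1.43, and Cldn5 by -2.63, -2.07 and 2.06. For respiratory chain genes the double-null median lay above both others, with 0.23 in double-null, -0.57 in Otx2-null and -0.52 in WT cells. Their contrast against WT was positive for 22 of 37, against 19.9% of all genes.

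Several genes moved in opposite directions. Hopx, an atypical homeobox gene, was at 8.69, 8.45 and 8.34 in double-null PGCLC, against 6.84, 7.17 and 7.43 in double-null EpiLC, a rise of 1.35. It fell by 1.43 in Otx2-null and by 5.15 in WT cells, and the contrast of 6.50 against WT was the largest of all genes (adjusted p 5.47e-16). Catsperz, a sperm ion channel subunit gene, changed by 1.96, -0.56 and -3.89 in double-null, Otx2-null and WT cells. Hebp1, a haem-binding protein gene, changed by 3.09, -0.43 and -1.40. Dnmt3l changed by -2.11 in double-null and 2.14 in WT cells, and by -0.45, which did not pass, in Otx2-null cells. Fgfr2 changed by -0.99, 2.30 and 3.99 in the same order, and Ap3b2 by -1.28, 1.34 and 4.05, although a dim further probe of each gave -0.03 (Fgfr2) and 0.33 (Ap3b2) in double-null cells and did not pass. Kdelr3, an endoplasmic reticulum retention receptor gene, was not detected in double-null EpiLC and was at least 16.3-fold higher in double-null PGCLC, with no call in WT.

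These contrasts also moved with gene length. From the fifth of genes with the shortest span in the genome to the fifth with the longest, the median contrast against WT was 0.11, -0.07, -0.17, -0.24 and -0.31, and against Otx2-null 0.16, -0.03, -0.16, -0.30 and -0.35. Within the double-null induction the same medians were -0.07, -0.08, -0.07, -0.01 and 0.04. They were -0.24, -0.06, 0.06, 0.24 and 0.34 in the Otx2-null induction, and -0.16, -0.02, 0.06, 0.18 and 0.33 in WT. The genes with the most positive contrasts included Rpl39l and Rpl22l1, which encode ribosomal protein paralogs, and Cox7b, a subunit of cytochrome oxidase. Rpl39l changed by 1.37 in double-null, -2.60 in Otx2-null and -2.30 in WT cells, Rpl22l1 by 0.97, -2.75 and -3.77, and Cox7b by 1.11, -2.71 and -2.70. Cox7b stood at 10.07, 10.31 and 10.19 in double-null PGCLC, against 8.66, 9.20 and 9.39 in double-null EpiLC. What lies behind the relation to gene length was not tested, nor was whether span bears on these genes or on the respiratory chain contrasts.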

How the data were processed

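Total RNA (100 ng) of 21 samples in 7 groups of 3 was measured on Illumina bead arrays, per the labels. The authors deposited probe intensity values without normalization, with a detection p-value for each probe, and a second table of normalized log2 values whose method is not given in the sources used here. The deposited intensities of replicate 2 of the Otx2-null PGCLC did not follow the probe order of the other columns, with a rank correlation of 0.00547 to its normalized column, and its order was restored by rank from that column. Intensities were background-corrected and quantile-normalized with neqc (offset 16, limma 3.58.1, R 4.3.3). Of 45281 probes, 34885 name 1 gene, 18 several and 10378 none. Probes detected at p under 0.05 on at least 3 arrays were kept (21647, of which 18156 have a gene name), and the brightest probe stood for each of 11649 genes. Some dimmer probes of other named genes, such as Tfap2a and Wnt7b, did not pass and are not given above. One limma model with a term for each group was fitted to all 21 arrays, with two-sided tests and Benjamini-Hochberg adjustment at 0.05; values in brackets after a log2 difference are its standard error and adjusted p. The number of arrays limits the precision. Replicate numbers did not pair the samples (deviations of same-numbered arrays correlated between -0.025 and 0.0325). The arrays name no slide or scan batch that could be used here. Figures were drawn with Python 3.11.15 and matplotlib 3.10.9.

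Named genes are Otx2 and Prdm1, a fixed panel, the 15 largest rises and falls without overlap, up to 4 called members of each list with the smallest p and those against its median, and the 10 largest contrasts each way. Members and lists were chosen with earlier results of these data known. Alternatives were the authors' table, no normalization, an offset of 50, 2 other filters, the mean of probes, a replicate block, the 6 arrays alone, each array left out, and a correction for gene span.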

Additional observations from a re-analysis of the deposited data

Results flagged for a closer look

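Each result here is a change between PGCLC and EpiLC that differed between the double-null line and another line by a test of the difference itself (limma, Benjamini-Hochberg adjusted p under 0.05). Against WT the change differed for 5749 genes, and against Otx2-null for 5686 genes. Values below are the double-null change minus the other line's change, on the log2 scale. For 2210409E12Rik, Kdelr3, Spink1, Klf2, Cxcl12, Cdx2, Nanos3, Tfcp2l1, Wnt7b, Ski, Cabp4, Ddx4 and Fut4, at least 1 group of the lines studied had no array with a detected signal, so the contrast is a fitted value and not a measured size.

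Against WT the most positive contrasts were those of Hopx at 6.50 and Catsperz at 5.84, followed by Rpl22l1 at 4.74, 2210409E12Rik at 4.53, Hebp1 at 4.49, Kdelr3 at 4.46, Spink1 at 4.19, Gm14325 at 4.19, 1190005I06Rik at 3.98 and Ifngr2, an interferon receptor subunit gene, at 3.97. The most negative were those of Igf2 at -7.08, Cdkn1c at -5.78, Cxcl12 at -5.50, Ap3b2 at -5.33, Klf2 at -5.20, Dppa3 at -5.17, Fgfr2 at -4.99, Prickle1 at -4.77, Slc5a5 at -4.70 and Cldn5 at -4.69.

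Among the germ cell, pluripotency and epiblast genes of the panel, the contrast against WT was -4.59 for Tfap2c, -3.89 for Esrrb, -3.43 for Cdx2, -2.96 for Dnd1 and -2.67 for Dnmt3b. It was -2.11 for Nanos3, -1.53 for Kit, -0.98 for Sox2, -0.94 for Pou3f1, -0.88 for Tfcp2l1 and -0.65 for Fut4. Dazl, at 2.32, and Ddx4, at 0.91, were the positive ones. Ddx4 was not detected on any double-null array, nor in WT PGCLC.

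Against Otx2-null the most positive contrasts were 4.28 for 2210409E12Rik, 3.98 for Rpl39l, 3.94 for Cabp4, 3.89 for Ttc29, 3.81 for Cox7b, 3.79 for Itgae, 3.78 for Gm2381, 3.72 for Rpl22l1, 3.70 for Gm14325 and 3.67 for BC028528. The most negative were -3.82 for Esrp1, -3.45 for Wnt7b, -3.38 for Gna13, -3.29 for Ski, -3.29 for Fgfr2, -3.28 for Dusp4, -3.19 for Castor1, -3.16 for Mbp, -3.03 for Zc3h13 and -2.99 for Rhox9. Probes of Gm14325, Gm2381 and other predicted genes may read several copies.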

How the results depend on the processing

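The 5038 genes that differed in the double-null induction became 3670 in the authors' normalized table, 4447 to 4759 with an array left out, 4859 in a fit of the 6 arrays alone and 4971 to 5080 in the other settings. The contrast with WT, 5749 genes, gave 4818 in the authors' table, 5195 to 5658 with an array left out and 5522 to 5837 otherwise. The contrast with Otx2-null, 5686 genes, gave 4503, 5136 to 5701 and 5444 to 5870. With the replicate number as a block the counts were 5080, 5802 and 5723. None of the 201 named genes changed sign with a call in these settings. Of these, 45 lost their call in the authors' table, against 8 with an offset of 50 and 10 to 16 with an array left out, and the cause was not tested. List results were the median and the counts of members higher and lower in each list, 87 in all. Beyond a set limit, 33 of the 87 changed in the authors' table, 14 with an offset of 50 and 4 to 10 in the other settings. The limit was the spread between arrays for medians and a ratio for counts. Dim genes are limited by background, where differences are bounds or near the floor. The median contrast with WT over all genes, -0.14, became 0.01 with the correction for gene span, which was added after seeing the data and centres the contrast by construction, so list medians of contrasts are read relative to it.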
